A study of Mus musculus with 6 samples.

Results

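The nuclear-encoded subunits of the mitochondrial respiratory chain and of ATP synthase, with the assembly factors that carry the same gene symbols, were examined at their promoters in regulatory T cells (Tregs) with and without the transcription factor CREB. The members were the protein-coding genes on chromosome 1 to 19 and X whose symbol starts with Nduf, Sdha, Sdhb, Sdhc, Sdhd, Uqcr, Cox4 to Cox8 or Atp5, which gave 98 gene records with 97 different symbols out of 21755 protein-coding genes. Atp5o has 2 records on chromosome 16. Their promoters were read as the accessible regions that overlap the 1000 bp on each side of any annotated start site, which gave 126 regions out of 104845 after both lists were joined. The study profiled open chromatin by ATAC-seq, in which a transposase cuts accessible DNA, in splenic Tregs of mice aged 6 to 12 weeks on the C57BL/6 background. The first group was CREBfl/fl, in which both alleles of CREB are floxed and no Cre is present, and the second was Foxp3creCREBfl/fl, in which Cre under the Foxp3 promoter deletes the floxed CREB in cells that express Foxp3. Both groups thus carry the floxed allele and only the second carries Cre, so that Cre and the loss of CREB cannot be told apart. The labels give 3 libraries per group, but the lists hold 1 set of regions per group, so each value below is 1 value per group with no spread over mice and no test of a genotype difference. Because each list pools many cells, fewer cells with an open promoter and less opening per cell cannot be told apart.

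The respiratory chain moves electrons from NADH and succinate to oxygen through complexes I to IV of the inner mitochondrial membrane, and ATP synthase, complex V, uses the resulting proton gradient to make ATP. Most subunits are encoded in the nucleus, translated in the cytosol and imported, while a small core is encoded by mitochondrial DNA, so that both genomes supply the complexes. Many of their promoters carry binding words for NRF1, GABP (an ETS factor) and YY1, and Tregs are known to rely on oxidative metabolism more than conventional effector T cells do. CREB binds the palindromic cAMP response element, the CRE, and its shorter half-site.

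Promoter sequence was available for 78 of the 97 symbols as 83 RefSeq windows of the GRCm38.p6 build, each running from 250 bp before to 50 bp after a start. The 19 symbols without a window included Atp5a1, Atp5f1, Atp5mpl, Atp5s, Cox4i1, Cox4i2, Cox6a2, Cox6c, Cox8c, Ndufa2, Ndufa4l2, Ndufaf6, Ndufb9, Ndufs1, Sdhc, Uqcrb, Uqcrc2 and Uqcrq. Sequences are printed 5′ to 3′ in the direction of transcription, capitals mark the matched words, and positions are those of a word's first base, with 0 at the first transcribed base. The word GCGCANGCG, read by NRF1, is shown first. Of the words searched, its share differed most from that of all promoters in percentage points, though not as a multiple. On either strand, 25 of 83 member windows held it, 30.1% (21.3 to 40.7), beside 8.92% of the 20061 windows of all 16433 protein-coding symbols. The windows of all symbols include those of genes without a region in either list. Bracketed ranges of shares are 95% Wilson intervals. In Sdha, the flavoprotein subunit of succinate dehydrogenase (complex II), the word occurred at -98, -55 and -10. Sdhaf4, an assembly factor of Sdha, held it at -44 and 9, Cox6a1, a subunit of cytochrome c oxidase (complex IV), at -162, -161 and -117, Ndufb10, an accessory complex I subunit, at -2, and Uqcr11, a small complex III subunit, at -5 with an ETS/GABP word at -66. Overlapping matches on the 2 strands, as at -162 and -161, are 1 stretch of DNA. Uqcrc1, a core complex III subunit, held the word at 6 and, outside the stretch printed here, at 30 and 31.
Sdha, chr13:74350221-74350350, minus strand: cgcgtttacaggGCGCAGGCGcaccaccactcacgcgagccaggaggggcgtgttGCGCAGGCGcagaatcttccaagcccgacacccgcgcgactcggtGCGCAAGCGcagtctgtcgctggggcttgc
Sdhaf4, chr1:24005621-24005700, minus strand: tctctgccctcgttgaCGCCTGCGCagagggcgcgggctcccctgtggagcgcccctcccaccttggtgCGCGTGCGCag
Cox6a1, chr5:115348959-115349138, minus strand: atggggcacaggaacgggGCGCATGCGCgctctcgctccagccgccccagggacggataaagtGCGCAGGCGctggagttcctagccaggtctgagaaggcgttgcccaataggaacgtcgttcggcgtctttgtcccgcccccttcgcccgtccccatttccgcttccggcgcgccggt
Ndufb10, chr17:24724404-24724503, minus strand: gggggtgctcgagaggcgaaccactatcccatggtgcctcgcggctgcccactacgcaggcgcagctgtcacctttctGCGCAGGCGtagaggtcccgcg
Uqcr11, chr10:80406802-80406911, minus strand: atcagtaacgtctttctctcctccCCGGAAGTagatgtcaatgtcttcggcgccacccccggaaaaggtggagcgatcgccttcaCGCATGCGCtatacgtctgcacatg
Uqcrc1, chr9:108936588-108936667, plus strand: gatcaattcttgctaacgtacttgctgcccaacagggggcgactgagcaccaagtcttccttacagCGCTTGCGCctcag

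The complete CRE, TGACGTCA, is shown next because it is the word bound by the deleted factor. It occurred in 4 of 83 member windows (4.82%, 1.89 to 11.7), beside 2.32% of all windows. The genes were Ndufa10, an accessory complex I subunit with the word at -67, Ndufa11, a membrane-embedded complex I subunit with the word at -158, Ndufb2, an accessory complex I subunit with the word at -14, and Uqcrfs1, the Rieske iron-sulfur protein of complex III, with the word at -29. Ndufa11 also held the NRF1 word at -60 and -59.
Ndufa10, chr1:92473739-92473858, minus strand: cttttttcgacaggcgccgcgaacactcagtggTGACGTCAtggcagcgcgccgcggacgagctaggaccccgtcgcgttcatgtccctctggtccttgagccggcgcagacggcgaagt
Ndufa11, chr17:56717572-56717761, plus strand: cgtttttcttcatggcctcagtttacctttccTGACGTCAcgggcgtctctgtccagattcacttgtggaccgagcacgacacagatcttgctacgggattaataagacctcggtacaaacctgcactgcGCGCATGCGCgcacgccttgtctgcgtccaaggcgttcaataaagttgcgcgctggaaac
Ndufb2, chr6:39592465-39592584, plus strand: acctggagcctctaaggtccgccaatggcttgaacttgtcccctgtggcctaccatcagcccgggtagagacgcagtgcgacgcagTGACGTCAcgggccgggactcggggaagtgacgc
Uqcrfs1, chr13:30545297-30545416, minus strand: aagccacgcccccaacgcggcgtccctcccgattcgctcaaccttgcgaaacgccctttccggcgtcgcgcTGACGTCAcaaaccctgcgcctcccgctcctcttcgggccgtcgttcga

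Further words more frequent in the member windows than in all windows were the YY1 word AAGATGGCG, in 8 windows (9.64%, 4.97 to 17.9, beside 1.92%), and the THAP11/ZNF143 word ACTACANTT, in 5 windows (6.02%, 2.60 to 13.3, beside 1.86%). Atp5d held the THAP11/ZNF143 word in 2 windows, so these were 4 genes (5.13%, beside 2.17% of all symbols). The YY1 word had a median position of 23.5 in the members, just inside the transcript. Ndufaf8, a complex I assembly factor whose promoter had the highest level among the assembly genes, is shown for the YY1 word at 10, and Atp5d, the delta subunit of the ATP synthase central stalk, for the THAP11/ZNF143 word at -122.
Ndufaf8, chr11:120098874-120098963, plus strand: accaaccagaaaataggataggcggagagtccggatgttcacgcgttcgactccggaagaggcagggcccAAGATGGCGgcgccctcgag
Atp5d, chr10:80142165-80142334, plus strand: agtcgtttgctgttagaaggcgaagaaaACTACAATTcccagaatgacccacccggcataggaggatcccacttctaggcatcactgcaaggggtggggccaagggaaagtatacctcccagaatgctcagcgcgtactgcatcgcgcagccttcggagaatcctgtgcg
The CREB half-site TGACG, which lies inside the CRE, occurred in 31 member windows (37.3%, 27.7 to 48.1), beside 24.3% of all windows. Among genes with a window whose tallest region was shared by both lists, the proportions were similar. There, 28 members held the half-site and 48 did not, beside 3606 and 6794 of all genes. On that base the NRF1 word was held by 24 members and not by 52, beside 1539 and 8861. The SP/KLF word was less frequent in the members there (11 and 65, beside 2574 and 7826). Shares close to those of all windows were found for the ETS/GABP word CCGGAAGT (6.02% beside 5.37%), the NFY word CCAATNNG (18.1% beside 15.9%), the SP/KLF word GGGGCGGGG (13.3% beside 15.9%), the E-box CACGTG (7.23% beside 8.06%), the AP-1 word TGANTCA (8.43% beside 7.0%) and the TATA box TATAAA (10.8% beside 12.1%). The median GC content was 58.3% in the member windows and 57.0% in all windows. A match describes letters only and is not evidence of a bound site.

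**Figure D1:**
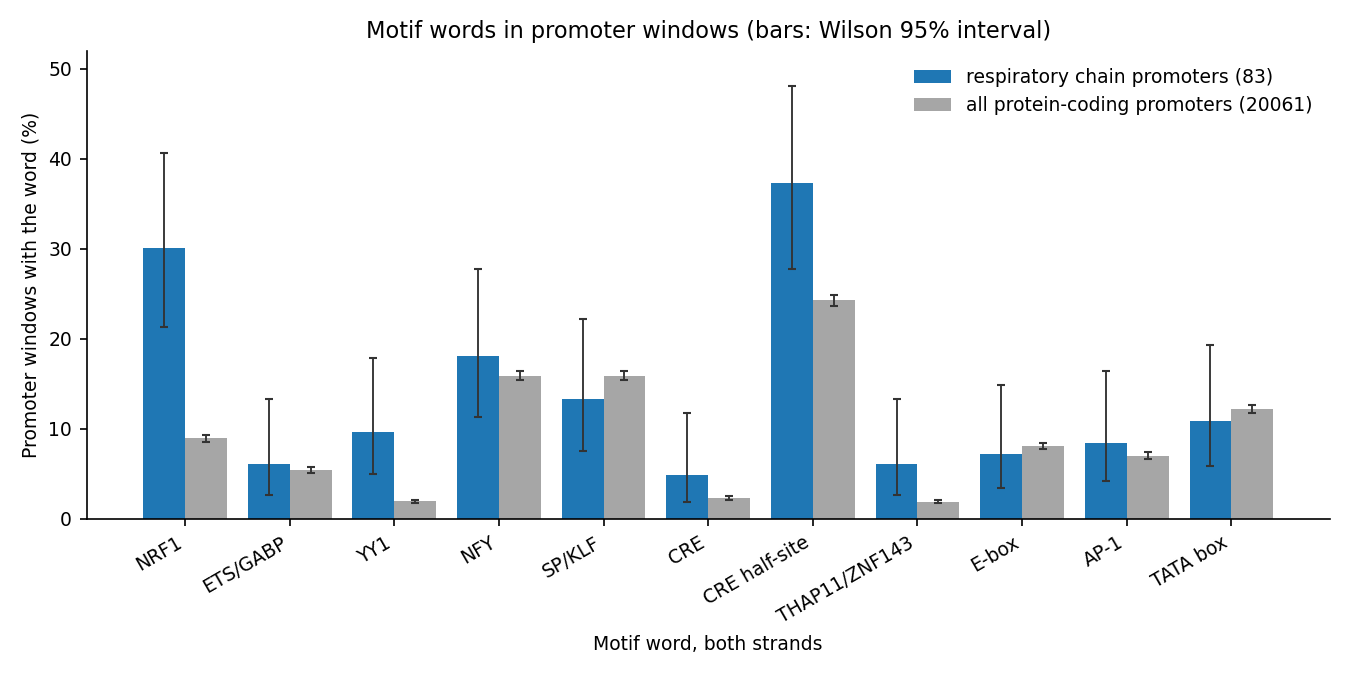
Share of RefSeq promoter windows that hold each word, in percent, for the 83 member windows and for all 20061 windows, with 95% Wilson intervals. The NRF1 word stands at 30.1% in the members and 8.92% in all windows, while the SP/KLF and TATA words are no more frequent in the members. All windows include those of genes without a region in either list.

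The CREBfl/fl list held 100771 regions and the Foxp3creCREBfl/fl list 94499, with a genome-wide background of 8.44 and 5.09 reads, a depth ratio of 1.66. A level below is the read pileup at a region's summit divided by its list's background, and a ratio is the log2 of the Foxp3creCREBfl/fl level over the CREBfl/fl level, minus the median of all 82009 shared regions, 0.15. Ratios carry a 95% exact interval from the pileups that, like the intervals of shares, covers counting error only. The labelled cell type was checked with start-site regions of marker genes: 7 of 7 Treg markers (Foxp3 at 116-fold and 121-fold the background) and 5 of 5 T cell markers had a region in both lists, with median levels of 74.2 and 75.3 for the Treg genes. The ratio was below 0 for 6 of the 7 Treg markers, from -0.47 for Ikzf4 and -0.28 for Ctla4 to 0.13 for Tnfrsf18. Of the T cell markers, Cd3e (-0.19), Lck (-0.12), Cd5 (-0.10) and Cd4 (-0.06) were also below 0 and Cd3g (0.11) was above. Over all shared start-site regions, 54.1% were above 0. Of markers of other cells, 3 of 5 B cell, 3 of 5 myeloid, 3 of 5 CD8 or NK and 2 of 4 erythroid genes had a region in both lists, among them Spi1 (41.1-fold and 54.1-fold) and Klf1 (66.8-fold and 75.3-fold), while Cd79a, Lyz2, Csf1r, Cd8a, Ncr1 and the globin genes were among those with none. The median levels of the markers with a region were 18.4 and 19.5 for B cells, 21.2 and 28.1 for myeloid cells, 13.1 and 11.4 for CD8 or NK cells and 47.2 and 47.6 for erythroid cells, and their part in the values below was not tested. The Creb1 start-site region stood at 1065 and 757 reads, with a ratio of 0.09 (-0.05 to 0.22), and does not check the deletion, since a start-site region need not overlap the floxed exons. No region of either list lay on the mitochondrial genome, so the subunits encoded there were not measured.

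Almost every respiratory chain gene had an accessible promoter in both genotypes. A region was present in both lists for 92 of 98 gene records (93.9%), in 1 list alone for 0, and in neither for 6, beside 61.6% with a region in both lists for all protein-coding genes. Cytosolic ribosomal protein genes (82 of 91, 90.1%) and proteasome subunit genes (38 of 40, 95%), other sets that most cells express, had similar shares. The 6 records without a region were the second Atp5o record, Cox6a2 and Cox8b, isoforms of heart and skeletal muscle, Cox7b2 and Cox8c, isoforms of the testis, and Ndufa4l2, a paralog of Ndufa4 induced by low oxygen.

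Isoform pairs of complex IV separated the same way in both genotypes, in the pairs with a region for each isoform, the broadly expressed one having the higher pileup. Cox4i1, the ubiquitous isoform of subunit IV, had a pileup of 643 reads in CREBfl/fl and 482 in Foxp3creCREBfl/fl, whereas Cox4i2, the lung isoform, had 32 and 26, the lowest of all members. Cox6b1 had 664 and 465 and its testis isoform Cox6b2 215 and 137. Cox7a2 had 1066 and 686 and its muscle isoform Cox7a1 294 and 191. Cox7b, whose testis paralog Cox7b2 had no region, had 294 and 192. The Cox6a1, Cox8a and Ndufa4 promoters were open (963 and 746, 1261 and 814, and 644 and 422) (Ndufa4 is now placed in complex IV despite its symbol) while their paralogs Cox6a2, Cox8b, Cox8c and Ndufa4l2 had no region. The ATP synthase genes Atp5g1, Atp5g2 and Atp5g3, which encode the same mature c subunit, were ordered alike in both lists, with 1955 and 1280 for Atp5g1, 975 and 625 for Atp5g2 and 574 and 386 for Atp5g3. Atp5g1 was the most accessible member promoter in both genotypes, above 99.9% of start-site regions in CREBfl/fl.

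**Figure D2:**
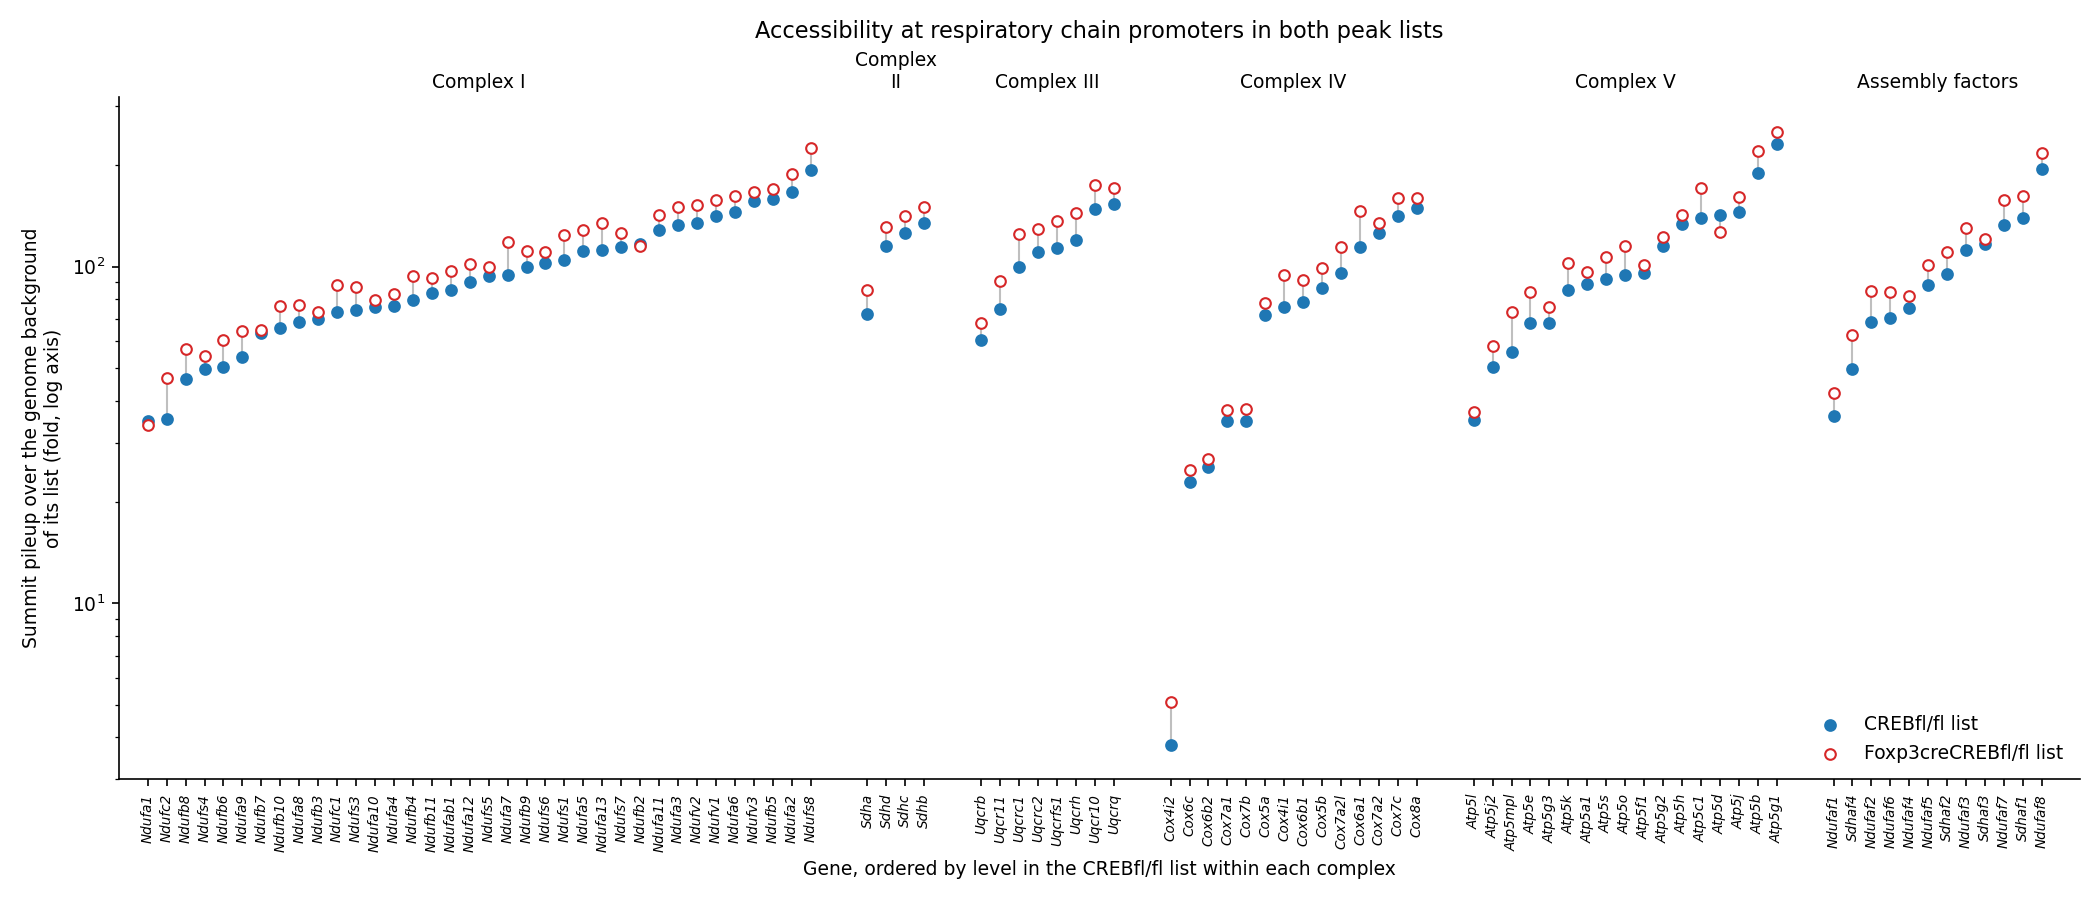
Level of the main promoter region of 91 members, as fold over the list's genome-wide background on a log axis, in CREBfl/fl and Foxp3creCREBfl/fl, by complex. The member medians are 94.3-fold and 108-fold, and the CREBfl/fl levels run from 3.79-fold to 232-fold. Cox4i2 stands far below the other complex IV genes.

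The member promoters were of above-average height without being extreme. The 92 main regions, the tallest start-site region of each gene, had a median pileup of 796.5 in CREBfl/fl and 551.5 in Foxp3creCREBfl/fl, which is 94.3-fold and 108-fold the background, beside 72.0-fold and 81.0-fold for all genes. Of the 92, 65 (70.7%, 60.7 to 79.0) lay above the median of all genes, but 9 of them (9.78%) were in the top 10%. Their median width was 939.5 bp.

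The summits sat close to the start sites, and many promoters were shared with a gene on the other strand. The summit lay within 100 bp of an annotated start in 74 of 92 genes (80.4%, 71.2 to 87.3), beside 62.4% of all genes, at a median distance of 34 bp beside 65 bp, although members had a median of 4 annotated starts and all genes 5. By annotation, 57 main summits lay upstream of the gene, 31 in an untranslated exon, 1 in a noncoding exon and 3 in an intron, and 16 lay inside another gene. A start on the opposite strand within 1000 bp was found for 37 of 92 (40.2%, 30.8 to 50.4), beside 19.0% of all genes. The median CREBfl/fl pileup of those 37 was 883, and that of the other 55 was 719, beside 869 and 582 for all genes with and without such a start. Atp5j, a subunit of the ATP synthase stalk, shares its region with Gabpa, which encodes a GABP subunit, so 1 pair of pileups stands for both genes. The summit fell on the same base in both lists for 40 members (43.5%, beside 35%) and within 20 bp for 75 (81.5%, beside 77.9%).

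**Figure D3:**
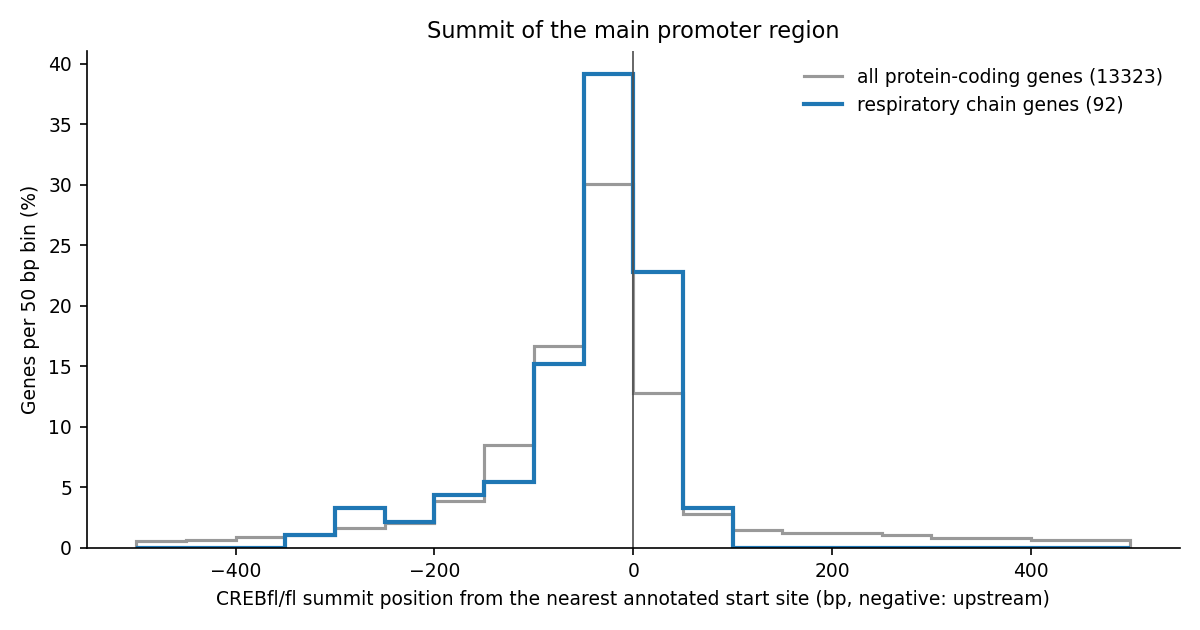
Distance of the main region's summit from the nearest annotated start site, in bp, for the members and for all protein-coding genes with a region. Member summits gather within 100 bp of the start in 80.4% of genes, beside 62.4% of all genes.

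Accessibility relative to the rest of the lists was nearly the same in the 2 genotypes. Over the 92 main regions the median ratio was 0.03, with a standard deviation of 0.10 across genes, a median counting error of 0.08 and a range from -0.31 to 0.28. After the median of shared regions was subtracted, the ratio corresponded to a change of no more than 10% in 75 of 92 members (81.5%), beside 66.6% of all genes. At the same range of levels (34.8-fold to 165-fold in CREBfl/fl) the standard deviation was 0.10 over 84 members and 0.15 over 8076 genes, with counting errors of 0.08 for both, and the ribosomal and proteasome genes had standard deviations of 0.10 and 0.09 and medians of 0.03 and 0.04. The ratio was above 0 for 61 of 92, but this count depends on the zero point: it was 50 relative to start-site regions, 44 with each region's own local background and 88 without subtracting the median. The unscaled pileup was lower in Foxp3creCREBfl/fl in 92 of 92, a list with the lower depth.

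A change was counted where the ratio passed 1.3-fold with an interval on 1 side of 0. Of the 112 member regions with a ratio, 1 was lower and 0 were higher, beside 3.16% lower and 2.36% higher of the 20362 shared start-site regions, and 5.12% and 3.63% of all 82009 shared regions. These wider sets include many regions of lower level. Among 8076 main regions of all genes at 34.8-fold to 165-fold in CREBfl/fl, 1.56% were lower and 0.21% higher. The 92 member main regions held 0 lower and 0 higher. None of the 112 passed a stricter limit of 2-fold and 5 counting errors, which 0.205% of all shared regions did. Without the 1.3-fold limit, the interval lay below 0 in 3 main regions (3.26%, beside 6.81% of all genes) and above 0 in 6 (6.52%, beside 7.61%).

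**Figure D4:**
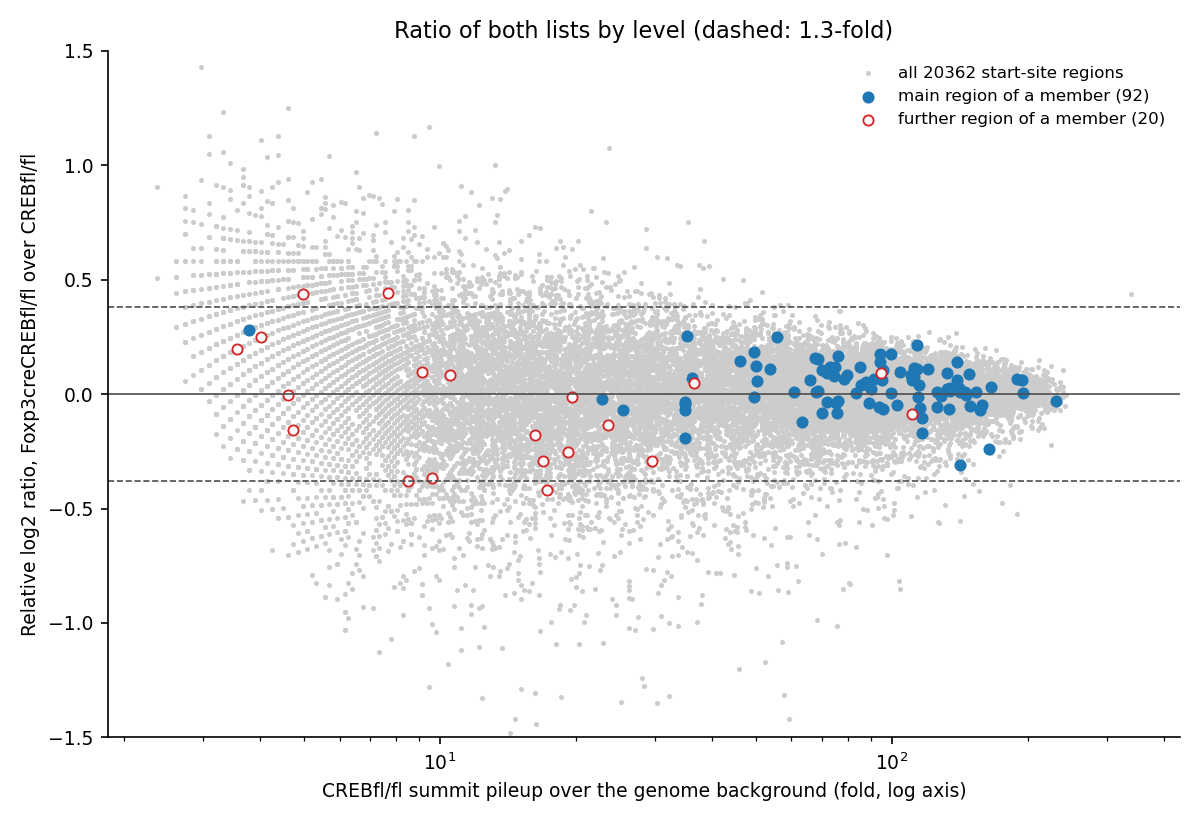
Ratio of Foxp3creCREBfl/fl to CREBfl/fl (log2, median of all shared regions set to 0) against the CREBfl/fl level on a log axis, for 20362 start-site regions, with 92 main and 20 further member regions marked. The main regions lie in a narrow band from -0.31 to 0.28, and the scatter is wider at low levels.

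Complex I, NADH dehydrogenase, feeds electrons from NADH into the chain. Its 37 subunit promoters were grouped by symbol and so include Ndufa4. They had pileups from 294 to 1640 in CREBfl/fl and from 172 to 1144 in Foxp3creCREBfl/fl, with a median ratio of 0.01 and 23 above 0. Ndufb2 had 988 in CREBfl/fl and 588 in Foxp3creCREBfl/fl, a ratio of -0.17 with an interval of -0.32 to -0.02 that lay below 0, short of 1.3-fold. Ndufa1, an X-linked accessory subunit and the lowest of the complex in level, had 294 and 172 and a ratio of -0.19, with an interval of -0.47 to 0.08 that includes 0. On the other side, Ndufc2, an accessory membrane subunit (chr7:97399938-97400696), had 297 and 237 and a ratio of 0.26 (0.00 to 0.51), and Ndufa7, an accessory subunit, had 795 and 601 and a ratio of 0.18 (0.02 to 0.33). Among the other subunits was the NADH-binding subunit Ndufv1, chosen after its values were seen, with 1195 and 803 and an interval of -0.12 to 0.14.

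Complex II, succinate dehydrogenase, links the citric acid cycle to the chain and is encoded wholly in the nucleus. Its 4 subunit promoters had ratios from 0.01 to 0.09. Sdha (chr13:74349773-74350608), the gene with 3 NRF1 words, had 609 and 434 and a ratio of 0.09 (-0.09 to 0.27), and Sdhc, a membrane anchor, had 1065 and 717 and a ratio of 0.01 (-0.13 to 0.15). All 4 lay above 0, but 2 of 4 fell below 0 relative to start-site regions, and likewise with each region's own background.

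Complex III, the cytochrome bc1 complex, passes electrons from ubiquinol to cytochrome c, and its 8 promoters had the highest median ratio of the 5 complexes, 0.10. All 8 ratios were above 0 with the reported zero point and also without subtracting the median, but 6 of 8 were with either of the other zero points. Cyc1, the cytochrome c1 subunit of this complex, falls outside the symbol rule and had a ratio of -0.05 (-0.25 to 0.15). Uqcrc1 (chr9:108936173-108937153) had 843 and 636 and a ratio of 0.17 (0.02 to 0.32), the one interval of the complex that excluded 0. Uqcr11 had 633 and 460 and a ratio of 0.12 (-0.06 to 0.30). The smallest ratios of the 8 were those of the small subunits Uqcrq (1300 and 874) and Uqcrb (513 and 345), both 0.01. Among the 8, the lowest and highest levels in CREBfl/fl were thus those of the genes with the smallest ratios.

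Complex IV, cytochrome c oxidase, reduces oxygen to water. Its 14 promoters, grouped by symbol and so without Ndufa4, had a median ratio of 0.00, with 7 above and 7 below 0. Cox6a1 (chr5:115348762-115349554) had 963 and 746 and a ratio of 0.21 (0.07 to 0.35), the one interval of the complex that excluded 0. Cox4i2 had the highest ratio of all members, 0.28, but with pileups of 32 and 26 its interval ran from -0.52 to 1.07, so that neither a rise nor a fall was detectable at this depth. The lowest ratios were those of Cox6b2, -0.07 (-0.39 to 0.25), and Cox7a2, -0.06 (-0.20 to 0.08), and the highest level was that of Cox8a, with a ratio of -0.05.

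Complex V, ATP synthase, had 17 promoters with a median ratio of 0.01. It held the lowest main ratio of all members, that of Atp5d. The taller Atp5d region (chr10:80141132-80141746), at an annotated start upstream of the RefSeq start, had 1199 in CREBfl/fl and 647 in Foxp3creCREBfl/fl, a ratio of -0.31 (-0.45 to -0.17), lower than in all but 7.2% of start-site regions and short of 1.3-fold. The region at the RefSeq start (chr10:80141958-80142574), which contains the sequence printed above, had 935 and 588 and a ratio of -0.09 (-0.24 to 0.06). The value for Atp5d therefore depended on which start was read. Atp5l, the g subunit and the lowest of the complex in CREBfl/fl, had 295 and 188 and a ratio of -0.07. The highest ratios were those of Atp5mpl, a small proteolipid of the complex, with 471 and 374 and 0.25 (0.05 to 0.45), and Atp5e, the epsilon subunit of the central stalk, with 573 and 428 and 0.16 (-0.02 to 0.34). The gamma subunit gene Atp5c1, chosen after its values were seen, also had an interval above 0, with 1178 and 869 and 0.01 to 0.27.

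Assembly factors help build complexes I and II and are not part of them. Their 12 promoters had a median ratio of 0.07 and 10 were above 0, a count that was 9 relative to start-site regions and 6 with each region's own background. No interval excluded 0. Ndufaf8, the highest in level, had 1650 and 1107 and a ratio of 0.00, and Sdhaf1, which helps mature the iron-sulfur subunit, had 1180 and 823 and a ratio of 0.06. The Sdhaf1 summit lay 1484 bp past its start, in an untranslated exon of E130208F15Rik. With the summit nearest to the start the ratio was -0.66. That value set a second Foxp3creCREBfl/fl peak of 500 reads against the same CREBfl/fl peak of 1180, so the 2 summits differ in position. Sdhaf4, with 2 NRF1 words, had 419 and 318 and the highest ratio of the group, 0.18 (-0.03 to 0.40). Sdhaf3 had 988 and 614 and the lowest, -0.11 (-0.25 to 0.04).

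**Figure D5:**
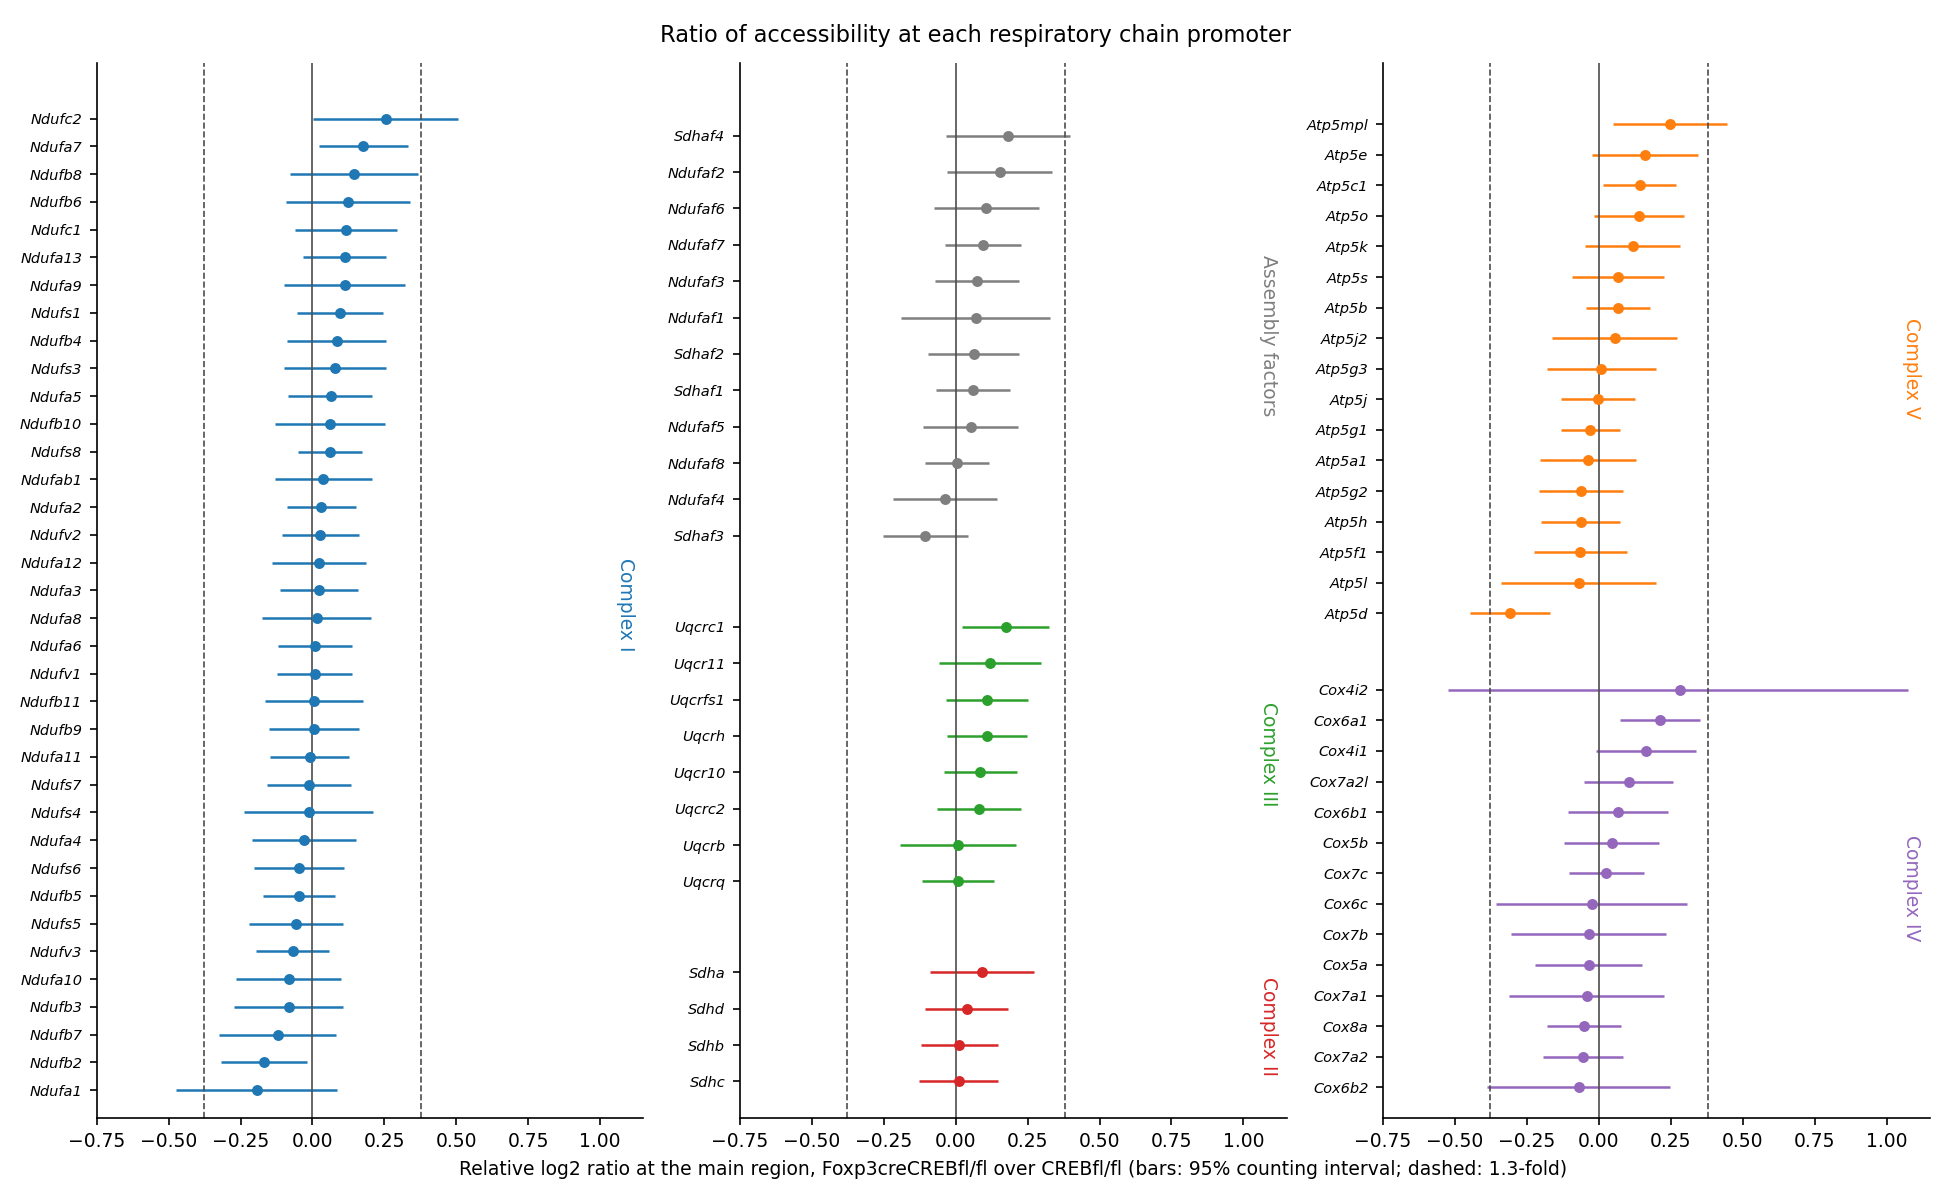
Ratio of the main regions of 91 members with its 95% counting interval, log2, by complex, with 0 at the median of all shared regions. The intervals of Atp5d and Ndufb2 lie below 0 and those of 6 genes above 0.

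Of the 4 genes with the complete CRE, 1 had a ratio above 0, and the only interval that excluded 0 was that of Ndufb2, below 0. Ndufb2 was at -0.17, as above, Ndufa10 had 641 and 405 and a ratio of -0.08 (-0.26 to 0.10), Ndufa11, whose summit lay at -678 from the nearest start, had 1088 and 723 and a ratio of -0.01 (-0.15 to 0.13), and Uqcrfs1 had 962 and 694 and a ratio of 0.11 (-0.03 to 0.25). Their median was -0.05 over 4 genes, beside 0.04 for the 72 members without the word, and over all genes the medians were -0.01 for 376 with it and 0.02 for the rest. The half-site gave the opposite order in the members, with medians of 0.05 for 28 with it and 0.02 for 48 without, while over all genes they were 0.00 and 0.03. The 24 members with an NRF1 word had a median of 0.05 and the 52 without it 0.03, beside 0.03 and 0.02 over all genes. None of these differences between medians was tested.

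Beside the main peaks, members had 20 further shared regions and 14 found in 1 list, nearly all small. The further shared regions had a median CREBfl/fl pileup of 113 and ratios from -0.42 to 0.44, with a standard deviation of 0.26 and a counting error of 0.22. The one member region counted as lower was among them: a region in the Ndufb10 gene (chr17:24723930-24724083), in an intron 393 bp past the start, had 146 in CREBfl/fl and 73 in Foxp3creCREBfl/fl, a ratio of -0.42 (-0.85 to -0.00). The main Ndufb10 region had 556 and 388 and a ratio of 0.06, which differs from the intron region in sign.

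Regions without a counterpart were no more frequent in the members than elsewhere. In CREBfl/fl, 116 of 128 member regions (90.6%, 84.3 to 94.6) overlapped a region of the other list and 12 did not, where 11.0% of all start-site regions had no counterpart. In Foxp3creCREBfl/fl, 126 of 128 (98.4%, 94.5 to 99.6) overlapped and 2 did not, beside 4.14%. The 12 were low, with pileups from 25 to 106 and widths from 84 to 181 bp, and the list with more of them was the deeper one, whose part in this was not tested. None of the 14 was a gene's main region. The tallest lay at Sdhc, with a pileup of 106, and further ones were found at Atp5c1 (99), Atp5h (87 and 80), Sdhd (75), Sdha (69), Cox7a2l (69), Ndufaf4 (59), Cox6b2 (48), Ndufc2 (35) and Ndufv3 (25). Of these, Atp5c1, Atp5h, Sdhd, Cox7a2l, Ndufaf4 and Ndufv3 were chosen after their values were seen. The 2 in Foxp3creCREBfl/fl were at Uqcrc2 (60), in an intron, and Cox7a2 (44), upstream.

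Genes that work with the chain were read from a separate list of 52 genes, which holds 5 electron carriers, further assembly factors of complexes I, III, IV and V, an inhibitor of complex V and 12 regulators. All 52 had a region in both lists, with a median ratio of -0.01 at the main regions. Of their 72 regions with a ratio, 1 was higher (1.39%) and 0 were lower, beside 2.36% and 3.16% of all shared start-site regions. The one was a small region at Coa3, a cytochrome oxidase assembly factor (chr11:101279318-101279417, summit at -228 from the start), with 47 and 55 and a ratio of 0.81 (0.22 to 1.40), whereas the main Coa3 region had 923 and 600 and a ratio of -0.04 (-0.19 to 0.11). Without the 1.3-fold limit, the interval of the main region lay below 0 in 3 of the 52 genes and above 0 in 0, beside 6.81% and 7.61% of all genes. The 3, named after their values were seen, are among the 18 cytochrome oxidase assembly genes of the list. They were Cox14 at -0.29 (-0.46 to -0.13), Cox15 at -0.17 (-0.34 to -0.00) and Coa5 at -0.15 (-0.28 to -0.01). The electron carriers had 1337 and 904 for Cycs (cytochrome c, ratio 0.02) and 533 and 345 for Cyc1 (cytochrome c1 of complex III, ratio -0.05). Among regulators, Nrf1 had 696 and 459 (-0.02), Gabpa 1231 and 822 (-0.00), Yy1 1316 and 919 (0.06), Esrra, an orphan nuclear receptor, 1571 and 1062 (0.02), and Tfam, the mitochondrial transcription factor, 760 and 553 (0.12). The coactivator gene Ppargc1b had 808 and 547 (0.02). Ppargc1a, the coactivator known for driving mitochondrial biogenesis and a known CREB target in liver, had a small region with 76 and 38 and a ratio of -0.42, whose interval of -1.02 to 0.16 includes 0.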

How the data were processed

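ATAC-seq libraries of splenic Tregs (75 bp reads, 3 libraries for each of 2 groups) were processed by the authors with Trim Galore, Bowtie2 and SAMtools per the labels, and peaks were called with MACS2 per the study's methods. Duplicates were removed before calling per those methods, and the tools' versions were not given in the sources used here. The methods name sequencing in duplicate and calling without a local background. The deposited files are 2 narrowPeak lists, 1 per group, with a fold ratio over background, −log10 p and q values and a score for each peak. No list per library was used here. The labels name the mm9 build, but the positions were read as GRCm38: 53.4% and 52.8% of 93145 annotated start sites lay in a region of the lists, against 14.8% and 13.8% after a shift by 100 kb.

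Pileups at summits were recovered from the deposited fold ratio and −log10 p of each peak as whole reads (99.9% and 100.0% of peaks within 0.002), after which 32.6% and 29.6% of peaks were at the genome-wide background and the others at a higher local one. Peaks of the 2 lists that overlapped by at least 1 bp were joined into 1 region, with the highest pileup of each list, and each gene's tallest start-site region (GENCODE vM21 starts) was its main region. Ratios used genome-wide background, centred on the median of shared regions (0.15), with exact conditional binomial intervals at 95%. Read pairs without molecular identifiers are not independent molecules, so intervals cover counting error alone. With 1 list per group no p-value was computed. The counting step was tested on simulated independent counts, which cannot check the spread of these data. In these lists the ratio divided by its counting error had a standard deviation of 1.20 over the members and 1.49 over all genes. Python 3.11.15, numpy 2.4.6, scipy 1.17.1, pandas 2.3.3 and matplotlib 3.10.9 were used.

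Genes named were, for each complex, the 2 lowest and 2 highest in ratio and the lowest and highest in level, the genes with no region or past 1.3-fold, isoform pairs, genes with a complete CRE, and, from the separate list, genes past 1.3-fold with Nrf1, Gabpa, Yy1, Esrra, Ppargc1a, Ppargc1b, Tfam, Cycs and Cyc1. The members and lists were chosen with earlier results of these data known. Alternatives were a window of 250 bp, an overlap of 50%, peaks with −log10 q of at least 10, other zero points, local background and the summit nearest to a start. Some genes of these lists are not reported here.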

Additional observations from a re-analysis of the deposited data

How the results depend on the processing

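The 9 main regions whose interval excluded 0 kept their sign under each other zero point, the local background, the 50% overlap, the −log10 q limit and, for the 8 with a value there, the summit nearest to a start. Leaving the median in raised each of the 92 gene ratios by 0.15, which took 40 of them out of their original 95% interval. The share of CREBfl/fl member regions with a counterpart was 98.0% with a window of 250 bp and 94.6% with peaks of −log10 q of at least 10. That of Foxp3creCREBfl/fl regions was 100% in both cases and 85.2% where regions had to overlap by 50%. For these shares and the counts that follow, no share over all start-site regions under the same setting is given here, so they describe the members alone. Without subtracting the median the middle ratio was 0.18, with 0 regions lower and 3 higher. The count of lower regions was also 0 with the 250 bp window and 0 with the −log10 q limit, and with the summit nearest to a start it was 2, with 1 higher and 1 past the stricter limit. That last setting moved 3 of 91 genes, Atp5d to -0.09, Ndufa13 to 2.72 and Sdhaf1 to -0.66. For Ndufa13 the nearest summit in CREBfl/fl was that of a smaller separate peak, with a pileup of 155. For Sdhaf1 the nearest summit in Foxp3creCREBfl/fl was that of a second peak of 500 reads, set against the CREBfl/fl peak of 1180. Neither value is thus a ratio at a single position. Leaving out a library was not possible, and no paired analysis was possible because there is 1 list per group. The difference between genotypes has no replicate check. In a promoter with the median counting error of 0.08, a change of 10% or less leaves 0 inside the 95% interval and is not detectable.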
